A study of Canis lupus familiaris with 6 samples.

Results

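The 10 genes described here are immediate early genes: FOS, FOSB, JUN, JUNB and JUND, which encode subunits of the transcription factor AP-1, the transcription factor genes EGR1 and ATF3, the early response gene IER2, and DUSP1 and ZFP36, whose products act as feedback inhibitors. They were chosen by symbol, and all 10 were found among the 31512 genes of the expression table, each under a single identifier. The samples were whole blood of 1.5-year-old Beagle dogs after 30 days of feeding. The control group (3 dogs sequenced) ate 30 g of a snack without casein phosphopeptide-selenium chelate (CPP-Se), and the CPP-Se group (3 dogs sequenced) ate 30 g of the snack with 0.03% CPP-Se, on top of the same maintenance food. All were healthy adults with no other treatment named in the sources used here, and each dog gave 1 library. The study fed 12 dogs, of which these 6 have libraries here.

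Immediate early genes are transcribed within minutes of a stimulus from factors already present in the cell, mainly through the MAP kinases ERK, JNK and p38 and the factors SRF, ELK and CREB that these kinases act on. FOS and JUN proteins pair through leucine zippers and bind DNA as AP-1, and FOS proteins bind only together with a partner such as a JUN protein. The same signals switch on their own brakes: the phosphatase DUSP1 inactivates p38 and JNK, and ZFP36 (tristetraprolin) binds AU-rich elements in short-lived mRNAs such as those of TNF and FOS and brings about their decay. In blood, neutrophils and monocytes are known for high levels of several of these mRNAs.

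Expression is given as deposited, in FPKM, that is, fragments counted on a gene after correction for its length and for the size of the library. Whole read numbers (within 0.01 of a read) could be recovered from the FPKM of 100% of the genes, and they summed to 6598173 to 8067034 per dog. The 8 hemoglobin genes held 36.6% of them in CPP-Se replicate 2 and 48.7% to 55.9% in the other dogs, and the library size implied by the FPKM was 1.65 times the reads on genes in that dog against 0.882 to 1.05 times in the others. Depth differed widely between the members, from 29 reads over the 6 dogs for ATF3 and 78 for EGR1 to 9318 for JUNB and 9912 for ZFP36.

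The members lie on 7 chromosomes of the dog genome of Ensembl release 100. JUNB (ENSCAFG00000028848, chromosome 20, 49359399 to 49360442) and IER2 (ENSCAFG00000023155, chromosome 20, 49072234 to 49072902) lie 286 kb apart on the minus strand. Both are annotated as a single uninterrupted exon whose length (1044 and 669 bases) is a multiple of 3, so reads from a UTR outside these models would not be counted. JUND (ENSCAFG00000023338, chromosome 20, 44736832 to 44763020, plus strand) lies 4309 kb before IER2. ZFP36 (ENSCAFG00000005530, chromosome 1, 113816273 to 113818065) and FOSB (ENSCAFG00000004443, chromosome 1, 110087036 to 110092818) are on the minus strand of chromosome 1. FOS (ENSCAFG00000017040) is on chromosome 8 from 48331026 to 48333467, DUSP1 (ENSCAFG00000029826) on chromosome 4 from 39588339 to 39590514, EGR1 (ENSCAFG00000001254) on chromosome 11 from 26046228 to 26048575 and ATF3 (ENSCAFG00000012339) on chromosome 7 from 10782064 to 10794163, each on the plus strand. JUN (ENSCAFG00000018897, chromosome 5, 50945210 to 51012677, minus strand) is labelled lncRNA in the file, although its description is that of the AP-1 protein.

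Some of these gene models overlap others, and the use of strand in counting is not given in the sources used here. DYRK1B, on the other strand, spans ZFP36 and held 225% of the reads on ZFP36 over the 6 dogs, and its log2 fold change was 0.15 (standard error 0.34). The part of its reads in the values of ZFP36 was not tested. PDE4C and IQCN, on the same strand as JUND, held reads equal to 6.78% and 0.127% of those on JUND. The pair of genes that overlap JUN had 0 reads in every dog. No other member overlapped a gene.

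In the control dogs, ZFP36, JUNB and IER2 were the most abundant members by FPKM, at 242 ± 3.46, 229 ± 24.4 and 190 ± 20.6 FPKM (mean ± SD, n = 3 dogs, as for every group mean given here). Over the 6 dogs these 3 genes ranked 232nd to 244th by mean FPKM among all genes of the table. DUSP1 (89.2 ± 19.6 FPKM) and JUND (39.9 ± 8.13 FPKM) followed, then JUN (15.96 ± 2.20 FPKM) and FOS (8.33 ± 2.34 FPKM). FOSB, EGR1 and ATF3 were close to the limit of detection, at 1.16 ± 0.918, 0.645 ± 0.228 and 0.461 ± 0.438 FPKM. The ranges of ZFP36, JUNB and IER2 over the control dogs overlapped for JUNB with each of the others, so JUNB's place in this order is not set beyond the spread between dogs. The order also rests on the annotated lengths, such as 669 bases for IER2 and 4918 for JUND. In reads over the control dogs JUND (4237) exceeded IER2 (2717).

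**Figure D1:**
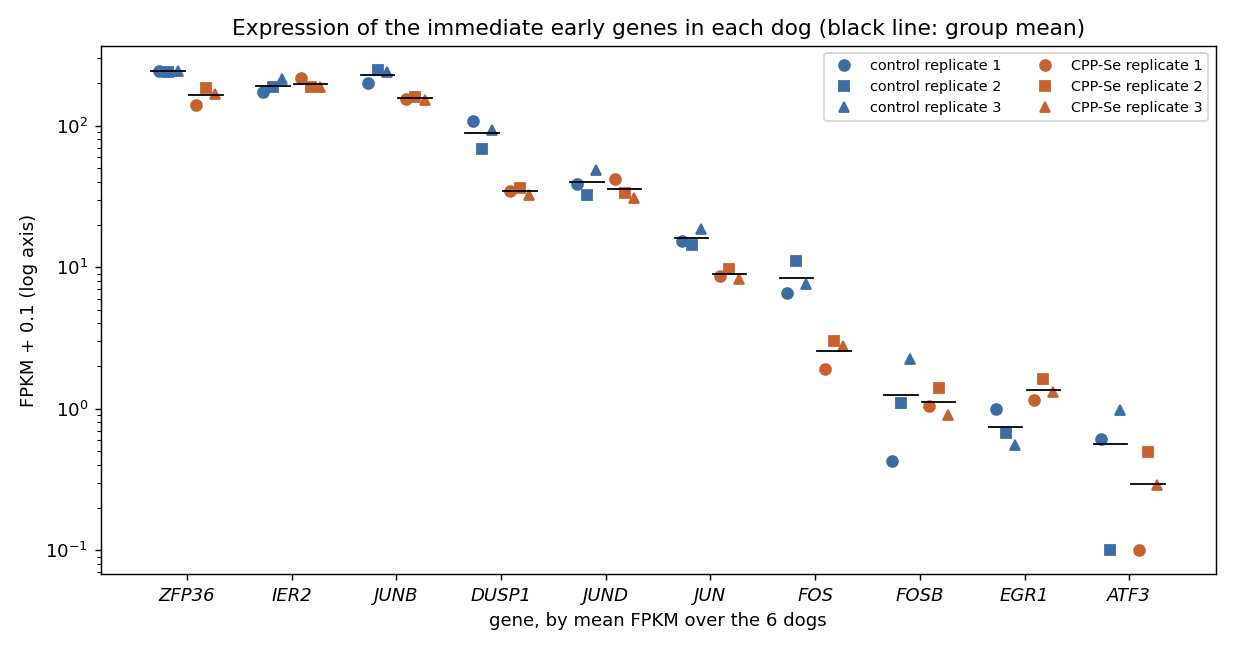
FPKM of the 10 genes in each dog, on a log axis after adding 0.1, with genes ordered by their mean over the 6 dogs. Points are dogs (blue for control, orange for CPP-Se) and black lines are group means, and for ZFP36, JUNB, DUSP1, JUN and FOS every CPP-Se dog lies below every control dog.

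Whether the groups differed was tested on log2(FPKM + 1) by limma, two-sided, in the 9847 genes that averaged 1 FPKM or more across all dogs, with Benjamini-Hochberg adjustment over all of them. A gene was called where the adjusted p was below 0.05 and expression differed by 1.5-fold or more, the thresholds of the study. The test covered 8 of the 10 members. EGR1 (mean 0.952 FPKM) and ATF3 (mean 0.328 FPKM) fell below the filter, and FOSB (mean 1.08 FPKM) was just above it. None of the 8 passed the thresholds (lowest adjusted p = 0.138 from limma, a value at or under which 124 genes lay), and over all genes 0.0305% were called lower in the CPP-Se group. At an unadjusted p under 0.05, 5 of the 8 were lower in the CPP-Se group (FOS, DUSP1, JUN, JUNB and ZFP36), where 9.1% of all genes tested were lower at that level. The count was 2 with FPKM scaled to a common sum, 3 with the hemoglobin genes left out of that sum, and 3 without control replicate 2 or control replicate 3. None of the 8 was higher at that level, against 6.87% of all genes tested. In the same 5 genes each CPP-Se dog lay below each control dog, where 12.6% of all genes tested did so. The median log2 fold change was -0.56 over the 8 members and -0.00 over all genes tested. In whole blood, fewer cells of a type and less RNA per cell cannot be told apart.

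**Figure D2:**
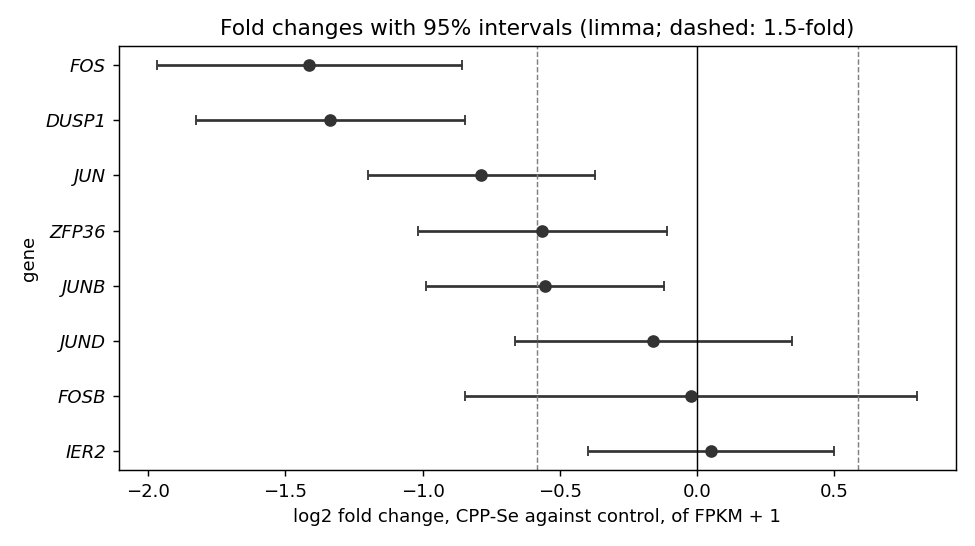
Log2 fold change of FPKM + 1 (CPP-Se against control) for the 8 genes tested, with 95% intervals from limma and dashed lines at a fold change of 1.5. FOS (-1.41) and DUSP1 (-1.34) are farthest below 0, and the intervals of JUND, FOSB and IER2 span 0.

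FOS, whose dimers with JUN bind DNA more stably than JUN alone, stood at 6.49, 11.0 and 7.54 FPKM for control replicates 1, 2 and 3. For CPP-Se replicates 1, 2 and 3 it stood at 1.82, 2.91 and 2.67 FPKM (values of single dogs follow this order throughout). The highest CPP-Se dog was below the lowest control dog, so the groups did not overlap. The log2 fold change was -1.41 (standard error 0.24, 95% interval -1.97 to -0.86), with an unadjusted p of 0.000409 that ranked 23rd among the genes tested (adjusted p = 0.138 from limma). These FPKM rest on 57, 90 and 78 reads among the controls and 15, 50 and 21 reads with CPP-Se. The exact 95% Poisson interval of the 15 reads, which covers counting error only, was 8.40 to 24.7 reads. The pseudocount of 1 lowers the fold change of genes at this level, and the ratio of the group means was 3.38.

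FOSB, a relative of FOS that pairs with the same JUN proteins, overlapped between the groups. The control dogs were at 0.330, 0.999 and 2.15 FPKM and the dogs fed CPP-Se at 0.937, 1.29 and 0.797 FPKM. All CPP-Se dogs lay inside the range of the control dogs, which itself spanned 6 to 46 reads. The log2 fold change was -0.02 with a 95% interval of -0.85 to 0.80. That includes changes of 1.5-fold in either direction, so a difference of that size is not excluded.

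JUN had 15.3, 14.2 and 18.4 FPKM among the controls and 8.63, 9.66 and 8.12 FPKM under CPP-Se. Every CPP-Se dog was below 10 FPKM and every control dog above 14. Its log2 fold change was -0.79 (standard error 0.18, unadjusted p = 0.00243, adjusted p = 0.144 from limma). JUNB, a JUN protein that activates AP-1 targets less strongly than JUN and can oppose it, had 201, 247 and 239 FPKM among the controls and 153, 160 and 153 FPKM among those fed CPP-Se. The CPP-Se dogs were close together, with a coefficient of variation of 2.68% against 10.7% in the control dogs, and the groups did not overlap. The log2 fold change of JUNB was -0.55 (standard error 0.19, unadjusted p = 0.0189, adjusted p = 0.231 from limma). JUNB was past an unadjusted p of 0.05 in 14 of the 19 alternative settings. It was not with FPKM scaled to a common sum (limma unadjusted p = 0.243, or 0.143 with the hemoglobin genes left out of the sum), without control replicate 2 or control replicate 3, or with the replicate number as a block.

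JUND is the JUN family gene known for steady expression in resting cells. It had 38.7, 32.4 and 48.6 FPKM among the controls and 42.0, 33.6 and 30.7 FPKM with CPP-Se. The groups overlapped, and the log2 fold change was -0.16 with a 95% interval of -0.66 to 0.34 (adjusted p = 0.763 from limma). That interval includes a fall of 1.5-fold. Within the JUN family, JUNB held most of the summed FPKM in every dog, from 75.2% to 84.1%. This order rests on the annotated lengths, 1044 bases for JUNB and 4918 for JUND, since over the 6 dogs JUNB had 9318 reads and JUND 8687, and in CPP-Se replicate 1 JUND had more (1324 against 1025). The share of JUN was 5.61% ± 0.685 in the control group and 4.41% ± 0.299 in the CPP-Se group, and that of JUND was 14.0% ± 2.60 and 17.7% ± 2.51. Shares within a dog do not depend on the scaling between libraries, and those of JUN and JUND did not overlap between the groups, although the nearest dogs were close (4.82% and 4.75% for JUN, 15.9% and 16.1% for JUND).

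FOSL2, which encodes the FOS family protein FRA-2, was the main FOS family transcript in this blood by FPKM, which rests on annotated gene lengths. Its protein pairs with JUN proteins in the same way as FOS. Its FPKM were 48.9, 51.0 and 64.7 among the controls and 29.4, 30.6 and 26.1 under CPP-Se, without overlap, and its log2 fold change was -0.90 (standard error 0.19, adjusted p = 0.138 from limma). FOS held 13.05% ± 3.81 of the summed FPKM of FOS, FOSB, FOSL1 and FOSL2 in the control group and 7.68% ± 1.77 in the CPP-Se group. FOSL2 held 80.8% to 91.4% in the single dogs. The summed FPKM of these 4 genes were 64.4 ± 9.41 and 32.2 ± 2.64, and those of the 3 JUN genes were 285 ± 26.4 and 199.6 ± 7.07 (control first, then CPP-Se).

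DUSP1 had the lowest p of the members. Control replicates 1, 2 and 3 had 107, 68.2 and 92.3 FPKM, and CPP-Se replicates 1, 2 and 3 had 34.3, 35.9 and 32.3 FPKM. The CPP-Se dogs varied little (coefficient of variation 5.18%, against 22.01% in the control dogs), and the lowest control dog was well above all of them. The log2 fold change was -1.34 (standard error 0.21, 95% interval -1.83 to -0.85), with an unadjusted p of 0.000262 that ranked 11th of the genes tested (adjusted p = 0.138 from limma). DUSP1 rested on 3259 reads over the 6 dogs, with at least 230 in each.

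ZFP36 was nearly constant among the control dogs, at 244, 238 and 243 FPKM (coefficient of variation 1.43%), and varied more among the CPP-Se dogs, at 139, 185 and 168 FPKM (14.0%). No CPP-Se dog reached the control range. The log2 fold change was -0.56 (standard error 0.20, unadjusted p = 0.0209, adjusted p = 0.243 from limma). ZFP36 was past an unadjusted p of 0.05 in 12 of 19 alternative settings. It was not with either common sum (limma unadjusted p = 0.247 and 0.154), without control replicate 1, 2 or 3, without CPP-Se replicate 1, or with the replicate block. In absolute terms ZFP36 and JUNB differed most: of the difference between the group means of the summed FPKM of the 10 members, ZFP36 made up 35.7%, JUNB 34.0% and DUSP1 25.4%. That sum was 786 to 865 FPKM among the controls and 584 to 616 FPKM among those fed CPP-Se.

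IER2, a small nuclear protein gene induced together with FOS and JUN by serum, overlapped between the groups, where JUNB on the same chromosome did not. It had 171, 186 and 212 FPKM among the controls and 216, 186 and 187 FPKM with CPP-Se. The ranges shared the stretch from 186 to 212 FPKM, and the log2 fold change was 0.05 with a 95% interval of -0.40 to 0.50 (adjusted p = 0.925 from limma). That interval does not reach the estimates for the 5 lower members, but it does not show that IER2 was equal in the groups.

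EGR1, a zinc finger transcription factor that is usually induced alongside FOS through SRF, was the only member with all CPP-Se dogs above all control dogs. Its values were 0.899, 0.577 and 0.458 FPKM (10, 6 and 6 reads) among the controls and 1.05, 1.52 and 1.20 FPKM (11, 33 and 12 reads) under CPP-Se. The gap between the nearest dogs of the groups was that between 10 and 11 reads, whose exact 95% Poisson intervals, 4.80 to 18.4 and 5.49 to 19.7 reads, overlap. In a fit without the filter on low values its log2 fold change was 0.46 (standard error 0.20, unadjusted p = 0.0544, adjusted p = 0.456 from limma). ATF3, a stress-induced repressor, had 6, 0 and 12 reads among the controls and 0, 9 and 2 reads among those fed CPP-Se. A count of 0 reads was given a limit of 3 reads, a one-sided 95% limit (the two-sided exact Poisson interval reaches 3.69 reads), which is 0.274 FPKM for ATF3 in control replicate 2 and 0.273 FPKM in CPP-Se replicate 1. No difference in ATF3 was detected at this depth, and none is excluded.

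The members were also compared with each other inside each dog, since a ratio of FPKM does not depend on how libraries were scaled. IER2 and JUND, whose groups overlapped, were chosen as denominators with these values known, so the direction of the ratios follows in part from that choice. The ratio of JUNB to IER2 was 1.18, 1.33 and 1.13 among the controls and 0.709, 0.862 and 0.817 with CPP-Se, without overlap. Whether such a ratio lies above or below 1 rests on the annotated lengths, and in reads JUNB exceeded IER2 in all 6 dogs. The ratio of DUSP1 to IER2 was 0.626, 0.366 and 0.435 against 0.158, 0.193 and 0.173, and that of FOS to IER2 was 0.0379, 0.0588 and 0.0356 against 0.00841, 0.0157 and 0.0143. In 5 of the 7 ratios computed (JUN to JUND, and JUNB, ZFP36, DUSP1 and FOS to IER2) each CPP-Se dog was below each control dog. For each of these the two-sided exact permutation test gave p = 0.1, the smallest that 3 dogs against 3 allow (0.14 after Benjamini-Hochberg adjustment over the 7). JUNB to JUND (exact p = 0.2) and JUND to IER2 (exact p = 0.3) overlapped between the groups.

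**Figure D3:**
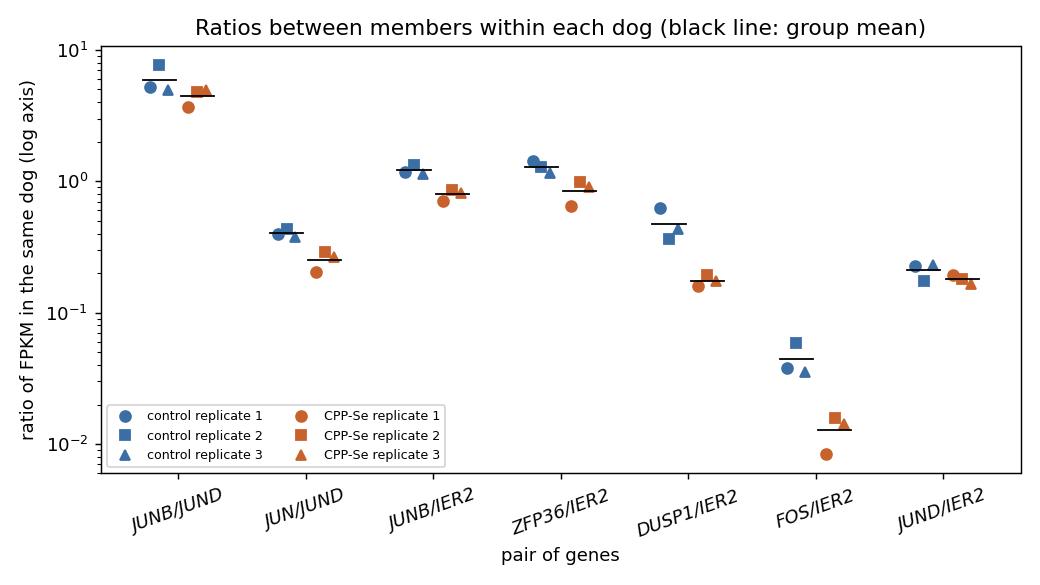
Ratio of the FPKM of a pair of members inside the same dog, on a log axis, for 7 pairs. Points are dogs (blue for control, orange for CPP-Se) and black lines are group means, and the ratios overlap between the groups for JUNB/JUND and JUND/IER2 and not for the other 5.

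The wider pathway was described by lists of known genes, given as counts beside those of the members. Of the 10 AP-1 dimer partners tested, none passed the thresholds (limma with Benjamini-Hochberg adjustment) and 4 were lower at an unadjusted p under 0.05, with a median log2 fold change of -0.25. That is 40% of the list, where 9.1% of all genes tested were lower at that level. Among the lower partners were FOSL2, MAFF (-1.01) and ATF4 (-0.72). JDP2, a repressor that pairs with JUN, had a log2 fold change of -0.03, and MAF was at the upper end of the list (0.31). BATF2 (0.569, 0.609 and 0.290 FPKM in controls, 0, 0.0583 and 0.127 under CPP-Se) was below the filter, and FOSL1 was at 0 in 4 dogs.

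Of the 16 other immediate early genes tested, none passed, 4 were lower (25%) and 1 was higher at an unadjusted p under 0.05, and the median log2 fold change was -0.37. Over all genes tested, 9.1% were lower and 6.87% higher at that level. The lower genes were IER5 (-1.29), PPP1R15A (-1.15), KLF6 (-0.73) and MCL1 (-0.58). PPP1R15A, which encodes the stress protein GADD34, had 13.6, 16.04 and 11.5 FPKM among the controls and 5.20, 6.85 and 4.82 FPKM among those fed CPP-Se. MYC was the gene on the other side, with a log2 fold change of 0.42 (SE 0.18, limma adjusted p = 0.303) and 20.2 to 24.6 FPKM in the control dogs against 28.7 to 34.2 with CPP-Se. BTG2 (0.09), CSRNP1 (0.13) and IER3 (0.28) overlapped between the groups. The EGR relatives were scarcely detected: EGR2 had at most 1.57 FPKM and EGR3 at most 0.281 FPKM in any dog, and EGR4 was at 0 in all.

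Upstream, 1 of 8 transcription factors tested (12.5%) was lower at an unadjusted p under 0.05, and in the MAP kinase cascades 1 of 16 genes tested (6.25%) was. These shares are near or below the 9.1% of all genes tested, so at this level they are no result about these lists. In the MAP kinase cascades 5 of the 16 genes had every CPP-Se dog below every control dog, a larger share than the 12.6% of all genes tested. The summed FPKM of the list was 318 to 353 in the control group and 264 to 269 in the CPP-Se group. The transcription factor was CREM (-0.55), a relative of CREB, while SRF had a log2 fold change of -0.18, CREB1 of -0.06 and MRTFA, a coactivator of SRF, of 0.40. The kinase gene was MAPK14, which encodes the p38 kinase that DUSP1 inactivates and that acts on ZFP36 through MK2, at 69.0, 84.4 and 66.6 FPKM among the controls and 42.2, 41.2 and 50.8 under CPP-Se (log2 fold change -0.70, standard error 0.19, adjusted p = 0.183 from limma). MAPK3 (-0.02), which encodes an ERK kinase, and the JNK genes MAPK8 (0.23) and MAPK9 (0.15) overlapped between the groups. Neither list had a gene past the thresholds.

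Of the other MAP kinase phosphatases, 4 were tested and 0 were lower or higher at an unadjusted p under 0.05 (limma), with a median log2 fold change of 0.05. DUSP2, like DUSP1 a nuclear phosphatase of MAP kinases, had 126, 88.0 and 114 FPKM among the controls and 139, 139 and 99.3 among those fed CPP-Se. DUSP5 and DUSP6, which act on ERK, had log2 fold changes of -0.00 and -0.23 with wide spread between dogs. Among 11 genes of the ZFP36 family and of deadenylation, ZFP36L2 (-0.64) and CNOT8 (-0.52) were lower at that level (18.2% of the list, against 9.1% of all genes tested), the first with 104, 112 and 139 FPKM among the controls and 66.8, 92.6 and 68.1 with CPP-Se. ZFP36L1 (-0.04) was not, nor were the CNOT1 scaffold (0.13) and HNRNPD (0.02), and the median of the list was -0.02.

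Known targets of ZFP36 were listed too. Of 6 tested, CXCL8, a neutrophil chemokine, was lower (-1.35, standard error 0.35, adjusted p = 0.173 from limma) and MYC higher at an unadjusted p under 0.05, where 9.1% of all genes tested were lower and 6.87% higher. IL1B (-0.53), VEGFA (-0.33), IER3 (0.28) and PLAU (0.52) were not past that level. TNF lay below the filter, at 0.810, 0.173 and 0.550 FPKM among the controls and 0.518, 1.66 and 1.81 under CPP-Se, and CSF2 and IL6 were at 0 in all dogs.

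**Figure D4:**
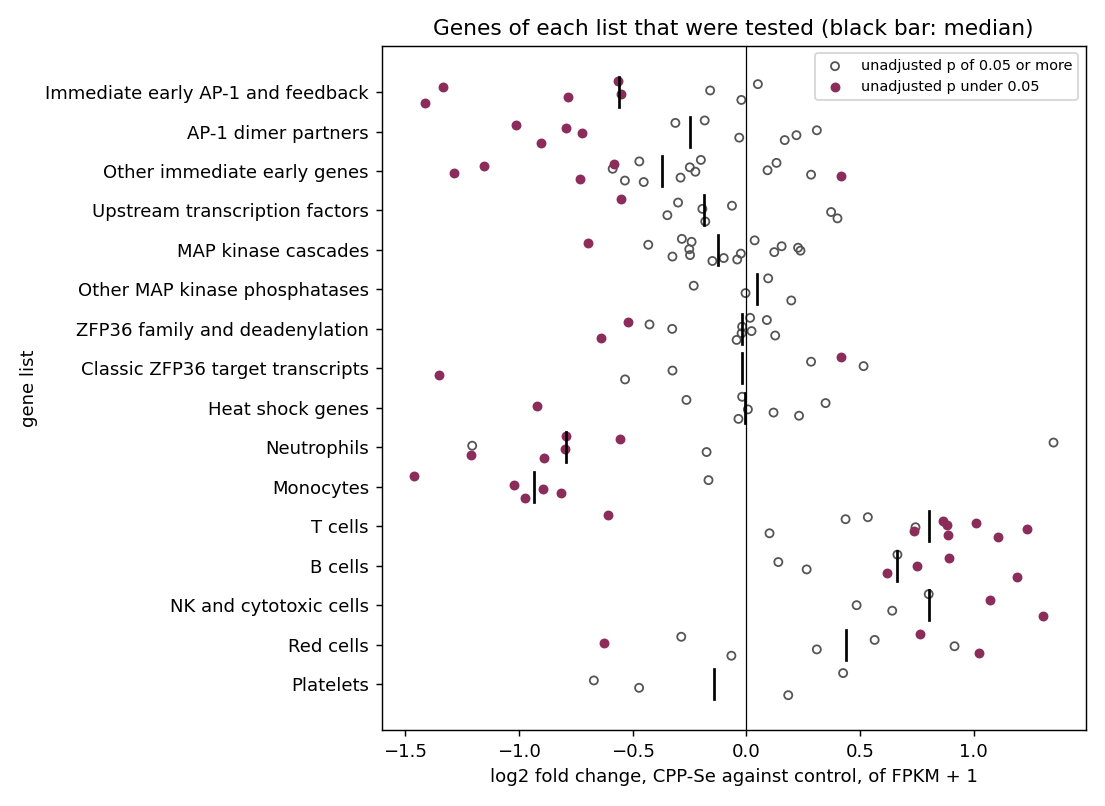
Log2 fold change of FPKM + 1 (CPP-Se against control) for every gene tested in each list, filled where the unadjusted p from limma was under 0.05, with a black bar at the list's median. The medians of the neutrophil (-0.79) and monocyte (-0.93) marker lists lie below 0 as does that of the immediate early AP-1 and feedback genes (-0.56), and those of the T cell (0.80), B cell (0.66) and NK and cytotoxic cell (0.80) lists lie above it.

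Blood cell type markers were compared in the same fit, in which 9.1% of all genes tested were lower and 6.87% higher at an unadjusted p under 0.05. Of 8 neutrophil markers tested, 5 were lower at that level, and the summed FPKM of the list was 2266 to 3031 among the controls and 1750 to 2247 among those fed CPP-Se. Of 6 monocyte markers tested, 5 were lower, with sums of 196 to 202 FPKM against 85.8 to 119 FPKM. MMP9, at 68.3 to 96.3 FPKM in the control group, was at 729, 23.7 and 540 FPKM with CPP-Se and counts in the neutrophil sums. CXCR2 (-1.21) on neutrophils and VCAN (-1.46) in monocytes differed by amounts similar to FOS and DUSP1. Of 12 T cell markers, 7 were higher and CD4, which dog neutrophils also carry, was lower (-0.61). Of 7 B cell markers 4 were higher, and of 5 NK and cytotoxic cell markers 2 were, among them PRF1 (1.31). No marker found in these lists was at 0 in all dogs, and CD14 was not used here because its symbol was not matched. None passed the thresholds (limma with Benjamini-Hochberg adjustment), and the part of cell composition in the results for the members was not tested.

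Per 1000 FPKM of the summed monocyte markers, the members did not all keep the direction they had in FPKM. ZFP36 was at 1207, 1198 and 1238 among the controls and 1302, 1554 and 1962 with CPP-Se, and JUNB was likewise higher in every CPP-Se dog. FOS was at 32.1, 55.3 and 38.4 among the controls and 17.0, 24.5 and 31.1 under CPP-Se, again without overlap. The nearest dogs were close for FOS (32.1 and 31.1), and JUN and DUSP1 overlapped. Against the summed neutrophil markers, DUSP1 (35.4, 30.1 and 40.3 in controls, 15.3, 19.7 and 18.5 among those fed CPP-Se) and FOS were lower in every CPP-Se dog, and JUN, JUNB and ZFP36 overlapped. Each ratio without overlap to either of these sums had a two-sided exact permutation p of 0.1, the smallest that 3 dogs against 3 allow. After Benjamini-Hochberg adjustment over the 10 ratios each was 0.2. With MMP9 left out of the sum, a choice made after seeing the data, the neutrophil sums were 2198 to 2935 FPKM in the control group and 1210 to 1799 FPKM with CPP-Se. DUSP1 was then at 36.5, 31.0 and 41.9 in controls against 22.6, 19.9 and 26.7. FOS was at 2.21, 4.99 and 3.42 against 1.20, 1.62 and 2.20, so its groups all but met, and the means of JUNB (96.5 and 105) and ZFP36 (100.5 and 111) were higher with CPP-Se, with overlap.

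Red cell and platelet markers and heat shock genes were set beside the members too. Of 8 red cell markers 2 were higher and 1 was lower at an unadjusted p under 0.05 (6.87% and 9.1% of all genes tested), and of 4 platelet markers none was. The heat shock list, which many stresses induce together with immediate early genes, had 1 of 8 genes lower at that level (12.5%, near the 9.1% of all genes tested), DNAJB1 (-0.92), and a median of -0.01. HSPA8, the constitutive HSP70, had a log2 fold change of -0.04.

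The genes whose values across the 6 dogs were most like those of FOS, by the root-mean-square difference of log2(FPKM + 1) centred on each gene's mean, were CA4 (0.20), PPP1R3B (0.22), PPP1R15A (0.24), LMO2 and ACVR1B (0.25 each) out of 8130 genes with a symbol. CA4 had 18.1, 46.5 and 26.3 FPKM among the controls and 8.73, 13.1 and 11.5 with CPP-Se, so control replicate 2 was its highest dog, as it was for FOS. For DUSP1 they were PLBD1 (0.11), AQP9 (0.15), DHX34 (0.19), LONRF3 and PFKFB2 (0.20 each). PLBD1 followed DUSP1 dog by dog, at 229, 138 and 175 FPKM against 69.0, 79.7 and 57.5, with control replicate 1 highest and CPP-Se replicate 3 lowest in both genes. With 6 dogs many genes share such a pattern: 21 genes lay within 0.3 of FOS and 51 within 0.3 of DUSP1.

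The number of members called differed between the methods, which differ in several choices at once, and which of these mattered was not tested. On recovered reads, a negative binomial model called 3 of the 8 lower, FOS (adjusted p = 0.00130), JUN (adjusted p = 0.00948) and DUSP1 (adjusted p = 6.3e-06), where it called 2.81% of all genes tested lower. JUNB had an adjusted p of 0.0438 in that model but a fold change under 1.5, and ZFP36 an adjusted p of 0.0623. Among the pathway genes, this model also called FOSL2, ATF4, KLF6, IER5, PPP1R15A, MAPK14, CXCL8 and DNAJB1 lower, and no gene of the other phosphatases, the upstream factors or the ZFP36 family and deadenylation list. Of the cell type markers it called 3 neutrophil and 4 monocyte genes lower, and 6 T cell, 1 B cell, 2 NK and cytotoxic cell and 1 red cell genes higher, where it called 1.52% of all genes tested higher. Limma-voom with sample quality weights called DUSP1 (adjusted p = 0.0401) and no other member, where it called 1.06% of all genes tested lower. Over all 19 alternatives the log2 fold change stayed between -1.73 and -1.22 for FOS, between -1.52 and -1.18 for DUSP1 and between -0.86 and -0.64 for JUN.

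**Figure D5:**
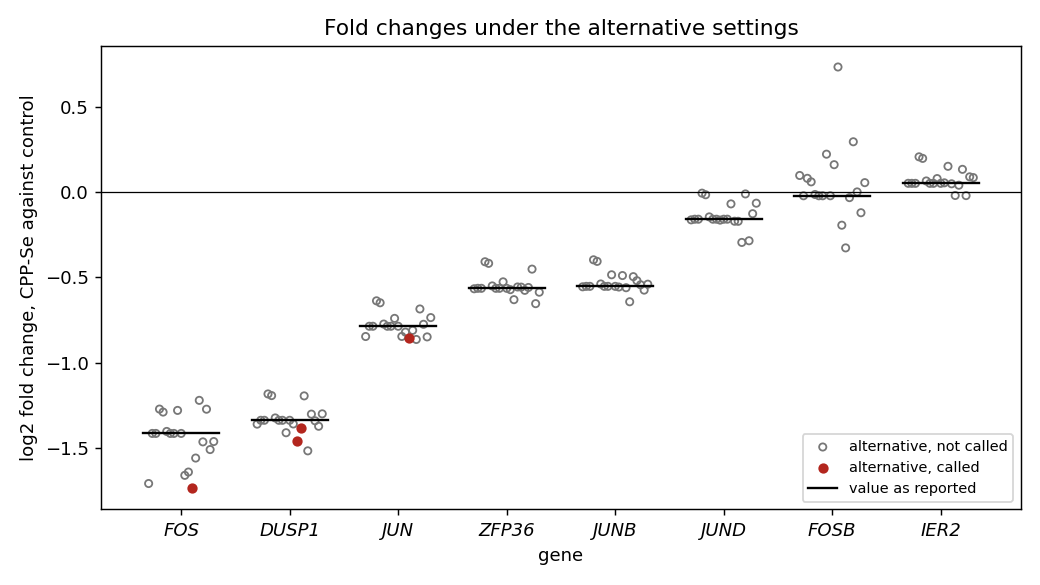
Log2 fold change of each gene tested (CPP-Se against control) as reported (black line) and under each alternative setting (points, filled red where the gene passed the thresholds). FOS, DUSP1, JUN, ZFP36, JUNB and JUND stay below 0 in every setting tried, and FOSB and IER2 fall on both sides of 0.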

How the data were processed

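Whole blood RNA of 6 dogs was analysed, with dogs grouped by the names of their libraries. Trizol extraction and oligo(dT) selection of mRNA came before library construction. Reads were aligned by the authors to the Ensembl release 100 dog genome (HISAT2 2.0.5), transcripts were assembled (StringTie 1.3.3b), and FPKM per gene were deposited by the authors. The submitters' processing notes also name CASAVA 2.19, fastp 0.19.7 and featureCounts 1.5.0-p3. The library size behind the FPKM is not given in the sources used here.

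FPKM were tested on log2(FPKM + 1) in R 4.3.3 with limma 3.58.1 (lmFit, eBayes with an intensity trend, two-sided), where genes averaged 1 FPKM or more. Ratios were compared by exact permutation tests in scipy 1.17.1. Standard errors and 95% intervals are those of the fit. Tables were made in Python 3.11.15 with numpy 2.4.6 and pandas 2.3.3, and figures with matplotlib 3.10.9. P-values measure the spread between dogs, 3 per group, and intervals on reads cover counting error only, since PCR copies are not told apart.

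The members and gene lists were chosen with earlier results of these data known. All members are named. Of each list, counts, the extremes and close relatives of the members are given, and other genes named were chosen after their values were seen. Some listed genes were not matched by symbol and were not used here. Some genes of the lists are counted but not reported here by name. The alternatives were a pseudocount of 0.1, no filter and a mean of at least 5 FPKM, 3 other scalings, eBayes without a trend, array weights, robust eBayes, a replicate block, limma-voom (fed recovered reads) with or without sample quality weights, a negative binomial model (a mean per group, offset by implied library size, trended dispersion shrinkage, Wald test), and each dog left out in turn. Sequences were not analysed here.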

Additional observations from a re-analysis of the deposited data

How the results depend on the processing

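The median log2 fold change of the members stayed negative in every alternative. With a common sum of FPKM it was -0.40, with a common sum without the hemoglobin genes -0.41, and without the filter, which adds EGR1 and ATF3, -0.40. Leaving out each dog gave -0.61 to -0.50. Both common sums moved the median of all genes, from -0.00 to 0.13 and 0.12. They left 2 members (FOS and DUSP1) and 3 members (with JUN) lower at an unadjusted p under 0.05, against 5. Leaving out each dog gave 3 to 5 members, with 3 (FOS, DUSP1 and JUN) without control replicate 2 or control replicate 3, and 4 (with JUNB) without control replicate 1 or CPP-Se replicate 1. The members called were 3 with the negative binomial model, 1 with limma-voom with sample quality weights and 0 in every other setting, each dog left out included. Genes called over the whole table numbered 3 as reported (1572 at an unadjusted p under 0.05), 0 with a pseudocount of 0.1 or without the filter (1537 and 1857 unadjusted), 1 with a mean of at least 5 FPKM, 1 with limma-voom, 12 with a common sum, 156 with sample quality weights, 427 with the negative binomial model, and 0 to 14 with each dog left out, the 14 without CPP-Se replicate 2. The causes were not tested.

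The replicate number as a block left 3 members (FOS, DUSP1 and JUN) lower at an unadjusted p under 0.05 and 1 gene called. Dogs of the same number had correlations of 0.02, -0.09 and -0.04 across genes, and dogs of different numbers -0.08 to 0.11. With values centred within groups of 3 dogs, these correlations cannot show whether the numbers pair dogs.

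Leaving out each dog gave -0.33 to 0.29 for FOSB. It turned positive with a pseudocount of 0.1 (0.10), the common sums (0.080 and 0.059), array weights (0.22), limma-voom without and with quality weights (0.16 and 0.73), and without control replicate 3 (0.29), CPP-Se replicate 1 (0.00015) or CPP-Se replicate 3 (0.05). IER2 turned negative without control replicate 1 or CPP-Se replicate 1 (-0.021 each). FOS, DUSP1, JUN, JUNB, ZFP36 and JUND kept their sign throughout. Depth limits FOSB, EGR1 and ATF3, which rest on 29 to 144 reads over the 6 dogs.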
